A study of Mus musculus with 8 samples.

Results

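Protein arginine methyltransferases (PRMTs) transfer methyl groups from S-adenosylmethionine to arginine residues of histones and of many RNA-binding proteins. Enzymes of type I, to which Prmt1, Prmt2, Prmt3, Prmt6, Prmt8 and Carm1 belong, place both methyl groups on the same nitrogen, Prmt5 makes the symmetric form, and Prmt7 adds a single methyl group. In ES cells Prmt1 and Prmt5 carry out most of this activity, and Prmt8 is known as a membrane-bound enzyme of neurons.

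The 8 members are the genes Prmt1, Prmt2, Prmt3, Prmt5, Prmt6, Prmt7, Prmt8 and Carm1, taken by name from the array annotation. They were measured by 12 of the 55681 non-control probes, which carry 8 of 36163 gene names. The cells were E14Tg2A, a mouse ES cell line of the 129/Ola strain, and its derivatives in neural induction. No further genetic manipulation and no drug is named for any group. Cells were taken as ES cells at 0 days in vitro, epiblast-like aggregates (ELA) at 2 days, neural progenitor cells (NPC) at 6 days and neural precursors (NPC/Neu) at 10 days. At every stage 1 array received total RNA and 1 array received RNA precipitated from the cytosolic fraction with an antibody to all Argonaute (Ago) proteins, the core of the RNA-induced silencing complex that miRNAs guide. Each array carried RNA pooled from 3 independent experiments, so no value has a replicate and no p-value can be given. Levels are log2 signals after normalization over the 8 arrays. Ago enrichment, E, is the log2 Ago-RNA signal minus the log2 total RNA signal of the same stage.

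As a measure of error, 399 probes printed in 10 spots each gave a median spot SD for E of 0.19, 0.23, 0.20 and 0.22 at the successive stages, and of 0.31 for the change of E from ES to ELA. This spread covers the printing and reading of spots and leaves out biological variation. All 12 PRMT probes were well above background on all 8 arrays. On each array 53.4% to 61.2% of the spots were well above background, and the ES Ago-RNA array was the brightest, with an upper quartile of the spot signal of 3039 against 1060 to 1774 on the other arrays. The 6 pluripotency markers were Pou5f1, Sox2, Nanog, Zfp42, Klf4 and Esrrb. The log2 of their summed total RNA signal was 17.35 in ES, 15.65 in ELA, then 14.02 in NPC and 14.46 in NPC/Neu. Sox2 held most of the later sums, at 13.64 in NPC and 13.87 in NPC/Neu against 13.75 in ES. Pou5f1 went from 15.21 in ES to 7.98 in NPC and 8.31 in NPC/Neu, and Zfp42 from 15.97 to 8.71 and 9.76. The log2 summed total RNA signal of 3 ELA markers (Fgf5, Pou3f1 and Otx2) was 16.23, 17.12, 15.98 and 16.16 at the successive stages. Otx2 made up most of the later sums, at 15.91 in NPC and 15.97 in NPC/Neu. From ELA to NPC Fgf5 went from 14.78 to 7.48 and Pou3f1 from 15.47 to 11.52. The log2 sum of 4 neural progenitor markers (Sox1, Pax6, Nes and Fabp7) went from 13.10 in ES to 16.23 in NPC and 17.79 in NPC/Neu, and that of the neuronal markers, of which 3 of 4 were matched, from 14.88 in ES to 17.52 in NPC/Neu. In ES Stmn2, at 14.44, made up most of the neuronal sum. Of the glial markers Gfap and Olig2, 0 of 2 were well above background in ES and ELA and 1 of 2 in NPC and NPC/Neu, with sums of 7.72, 7.98, 8.37 and 9.54. Sums of other cell types moved as well from ES to NPC/Neu. The trophoblast markers Cdx2 and Krt8 went from 14.83 to 10.52. The 5 mesendoderm markers went from 9.89 to 11.81, and the fibroblast markers Col1a1 and Col1a2 from 9.90 to 11.01. Genes within a sum differed. Krt8 went from 14.82 to 10.40, while Cdx2 was at 7.04 in ES, 9.29 in NPC and 6.88 in NPC/Neu. Eomes went from 8.60 to 11.33 and T from 7.19 to 9.31, while Gata4 went from 7.64 to 6.98. Col1a2 went from 8.96 to 10.66, while Col1a1 was at 8.83 and 8.79. The part of other cell types in the values of the members was not tested. Since these are bulk cultures, fewer cells of a type and less RNA per cell cannot be told apart.

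Prmt1 and Prmt8 are close relatives, so their coding probes are shown beside the matching stretch of the other gene's transcript to show how far they differ. Each is written 5′ to 3′ on the transcript strand, and capitals mark the bases that differ within the pair. The Prmt1 probe lies at chr7:52234092-52234151 (mm9, minus strand) and differs from the Prmt8 coding sequence at 11 of 60 bases.
Prmt1 probe: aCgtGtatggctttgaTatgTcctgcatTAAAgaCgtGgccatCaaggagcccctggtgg
Prmt8 transcript: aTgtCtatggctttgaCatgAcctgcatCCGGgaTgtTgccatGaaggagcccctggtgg
The Prmt8 probe crosses an exon junction between chr6:127639914-127640674 (mm9, minus strand) and differs from the Prmt1 coding sequence at 18 of 60 bases.
Prmt8 probe: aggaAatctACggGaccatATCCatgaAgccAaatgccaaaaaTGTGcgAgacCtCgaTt
Prmt1 transcript: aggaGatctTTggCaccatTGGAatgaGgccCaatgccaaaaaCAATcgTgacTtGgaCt
Each of the other 10 member probes was at least 22 edits away from every other member's transcripts. Binding of a probe to the other gene's RNA was not tested.

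From ES to NPC/Neu, total RNA of Prmt8 was 18.8-fold higher and that of Prmt2 4.47-fold higher, while Prmt1, Prmt3 and Prmt7 were lower by more than 1 log2 unit. These are 2 of 8 members at or above 1 and 3 of 8 at or below -1. Of all genes well above background, 16.6% were at or above 1 and 16.7% at or below -1 over the same interval, and their median was -0.06, against -0.59 for the 8 members. Prmt5 (-0.86), Carm1 and the probe mean of Prmt6 (0.85) stayed within these limits. Under the alternative settings 5 to 7 members were past 1 in either direction, since Prmt5 was at -1.51 with scaling to the 75th percentile, and Prmt6 ran from 1.09 to 1.47 with normexp at offset 0 or the processed intensity.

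**Figure D1:**
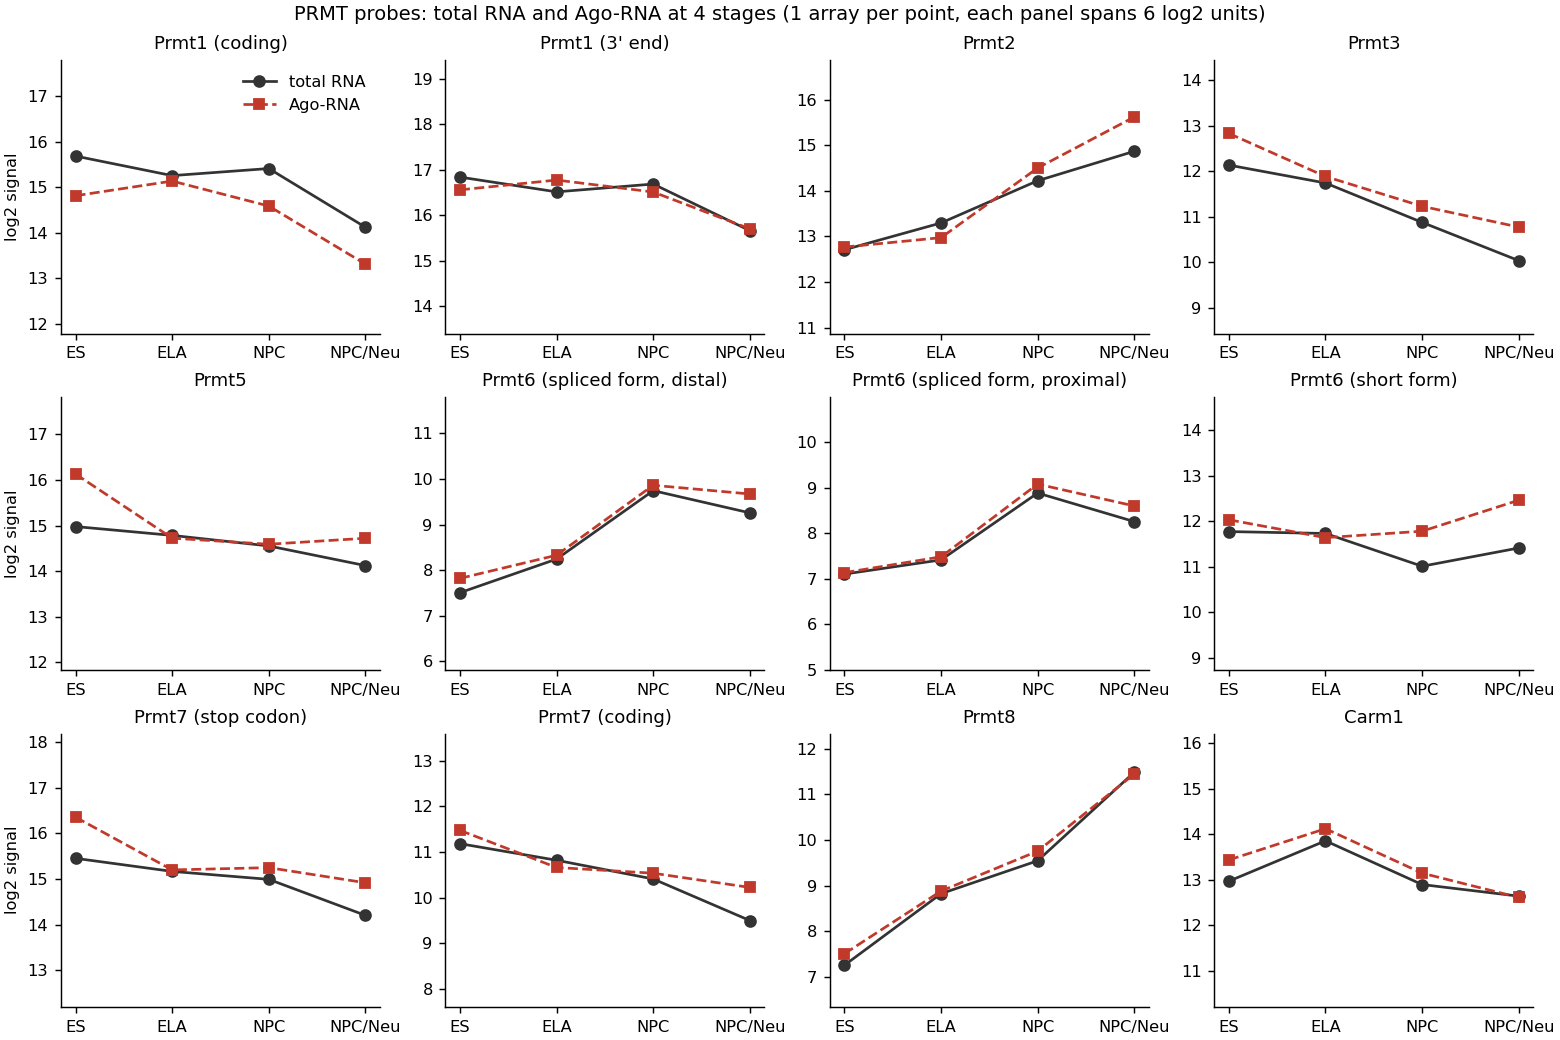
Log2 signal (vertical axis) in total RNA (black circles) and Ago-RNA (red squares) at the 4 stages (horizontal axis) for each of the 12 PRMT probes. Every point is 1 array, and every panel spans 6 log2 units around its own mean, so slopes can be compared and levels cannot. Prmt8 and Prmt2 climb in both fractions, Prmt3 and Prmt7 descend, and the fractions of Prmt5 and Prmt7 lie apart in ES and meet in ELA.

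Prmt8 (chr6:127639029-127719490, mm9) had the steepest profile of the family. Its total RNA signal was 7.25 in ES, 8.82 in ELA, then 9.54 in NPC and 11.49 in NPC/Neu, and its Ago-RNA signal was 7.50, 8.88, 9.76 and 11.45. Every stage was higher than the one before it in both fractions. The difference from ES to NPC/Neu was 4.24 log2 units in total RNA, above that of 99.2% of genes. In ES the probe was dim, and over the alternatives the difference ran from 3.96 log2 units, with normexp values scaled to the 75th percentile, to 5.33, with the processed intensity and quantile normalization. E of Prmt8 was 0.25, 0.06, 0.21 and -0.04, so that both fractions moved by nearly the same amount.

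Prmt2 (chr10:75669967-75700610, mm9), a coactivator of nuclear receptors with weak catalytic activity, was the other member with higher RNA at each later stage. Total RNA was at 12.71 in ES, 13.30 in ELA, then 14.22 in NPC and 14.87 in NPC/Neu. Ago-RNA was at 12.77, 12.97, 14.50 and 15.62, the larger span of the fractions. E was accordingly lowest in ELA, at -0.32, and highest in NPC/Neu, at 0.75, with 0.06 in ES and 0.28 in NPC. From ES to NPC/Neu the difference in E was 0.69, above that of 90.1% of genes.

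Prmt3 (chr7:57033716-57113635, mm9), which methylates a protein of the small ribosomal subunit, ran the other way. Its total RNA signal was 12.13 in ES, 11.74 in ELA, then 10.87 in NPC and 10.04 in NPC/Neu, and its Ago-RNA signal was 12.83, 11.88, 11.23 and 10.77. Each stage was lower than the one before it in both fractions. The total RNA difference of -2.10 was below that of all but 4.88% of genes.

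Prmt7 (chr8:108734836-108776694, mm9) was read by 2 probes, one in the coding sequence and one across the stop codon. At the coding probe total RNA was 11.18 in ES, 10.82 in ELA, then 10.41 in NPC and 9.50 in NPC/Neu. At the stop codon probe it was 15.45, 15.17, 14.99 and 14.20. Both probes were lower at each later stage, with differences from ES to NPC/Neu of -1.69 and -1.25.

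Carm1 (chr9:21351338-21393931, mm9), a coactivator that methylates histone H3, had its highest level in ELA. Its total RNA signal was 12.97 in ES, 13.86 in ELA, then 12.90 in NPC and 12.64 in NPC/Neu, and its Ago-RNA signal was 13.44, 14.12, 13.15 and 12.62. From ES to ELA total RNA was 0.89 higher, and from ELA to NPC it was 0.96 lower on the log2 scale, each more than 4 times the spot SD of such a change (0.22 and 0.22).

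Prmt6 (chr3:110049027-110053916, mm9), which methylates histone H3 and counteracts an activating mark, gave values that depended on the probe. The gene has a transcript of a single exon (ENSMUST00000106567) and a transcript spliced to a downstream exon (ENSMUST00000168412), both with the same coding sequence. The array annotation assigns the probes of the downstream exon to NR_024139, a non-coding RefSeq record. A transcript of the nonsense-mediated decay type overlaps these probes too. The probe in the 3′ end of the single-exon transcript (chr3:110051517-110051576) had total RNA at 11.77 in ES, 11.73 in ELA, then 11.01 in NPC and 11.41 in NPC/Neu. Between ELA and NPC it was lower by 0.72.

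The probes in the downstream exon moved the other way over the same interval. The one nearer the promoter (chr3:110050018-110050077) was at 7.10, 7.42, 8.88 and 8.26, and the farther one (chr3:110049190-110049249) at 7.50, 8.24, 9.74 and 9.26. From ELA to NPC they were 2.77-fold and 2.83-fold higher. Both were dim at the early stages, with mean total RNA intensities of 132 to 262 in ES and ELA before background correction. The probe of the single-exon transcript was at 2957 and 2334, so the ratios of the dim probes are less certain. The mean over the 3 probes, 0.85 higher from ES to NPC/Neu, thus describes neither form, and the probe of the single-exon transcript alone gave -0.36. No probe covers the shared coding sequence, so the sum of both forms was not measured.

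**Figure D2:**
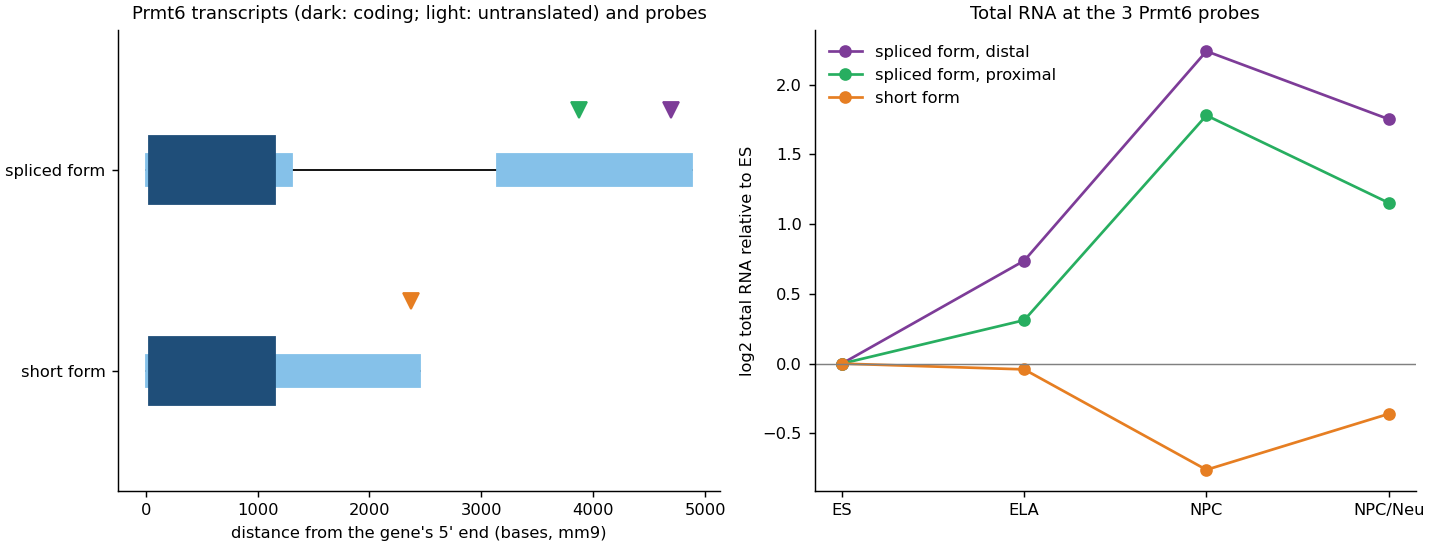
Left, the single-exon (short) and the spliced transcript of Prmt6 by distance from the gene's 5′ end in bases, with coding parts in dark blue, untranslated parts in light blue and the 3 probes as triangles. Right, log2 total RNA at each probe relative to its own ES value over the 4 stages (1 array per point). Both downstream exon probes lie above 1.7 in NPC, where the probe of the short transcript lies below -0.7.

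In ES cells E ranged from -0.58 for Prmt1 to 1.15 for Prmt5, with a median of 0.36 over the 8 members and of 0.05 over all genes. Prmt5 was the only member at or above 1, where 11.8% of genes lay, and Prmt1 the only one below 0, where 47.5% lay. This order depended on the scaling: with the processed intensity and with normexp values scaled to the 75th percentile, E in ES was 0.59 and 0.61 for Prmt5, below Prmt3 at 0.81 and 0.78. In the same settings Prmt6 (-0.08 and -0.27) and Prmt8 (-0.26 and -0.49) were below 0 as well, and Prmt1 was lowest, at -1.23 and -1.17. The median of all probes in ES was itself -0.21 and -0.28 there. Prmt6 lay above this median in both settings, and Prmt8 lay below it. In ELA all 8 members lay between -0.32 and 0.27. Values of all genes lay closer together there too, with quartiles of E of -0.30 and 0.28 in ELA against -0.49 and 0.55 in ES.

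**Figure D3:**
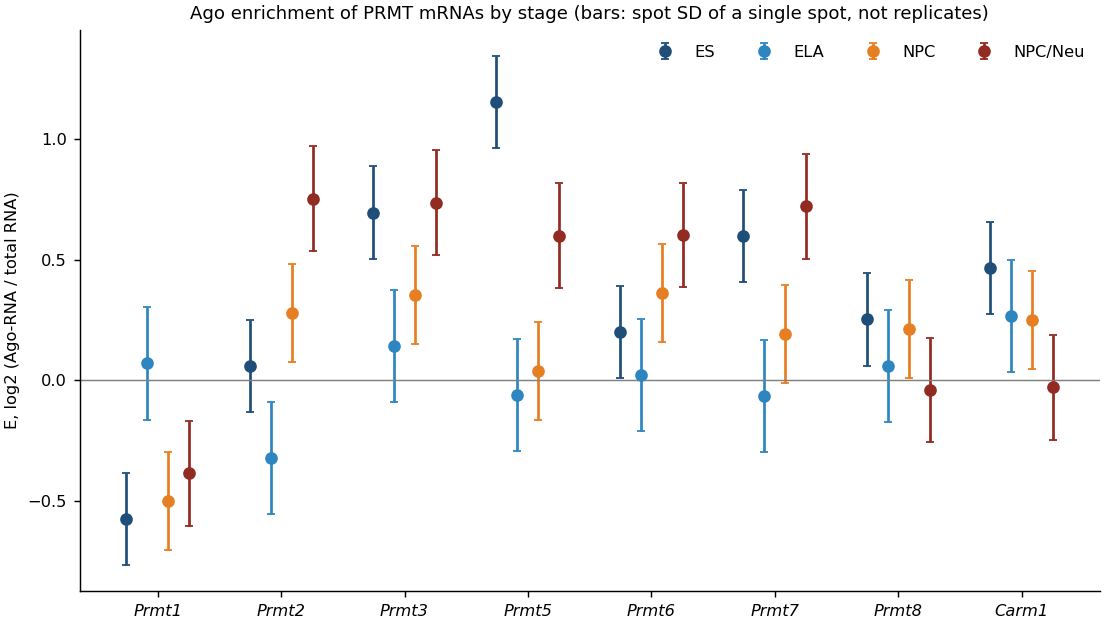
Ago enrichment E (log2 Ago-RNA over total RNA, vertical axis) of the 8 genes at the 4 stages, with probes of a gene averaged. Bars are the median spot SD of repeated probes (0.19 to 0.23), not replicate error. Prmt5 in ES, at 1.15, is the highest point, and Prmt1 is the only gene below 0 in ES with this normalization. With scaling to the 75th percentile Prmt3 lies above Prmt5, and Prmt6 and Prmt8 lie below 0. The median of all probes in ES is -0.21 or -0.28 with such scaling.

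Prmt5 (chr14:55126024-55136362, mm9) makes symmetric dimethylarginine on histones and on Sm proteins of the spliceosome. Its Ago-RNA signal was 16.13 in ES, 14.73 in ELA, then 14.59 in NPC and 14.72 in NPC/Neu. Its total RNA signal was 14.98, 14.79, 14.55 and 14.12. The ES value stood 1.41 above the next in Ago-RNA, whereas total RNA differed by only 0.19 between ES and ELA.

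E of Prmt5 was 1.15 in ES, -0.06 in ELA, then 0.04 in NPC and 0.60 in NPC/Neu. The change from ES to ELA was -1.21, lower than that of all but 4.18% of genes and about 4 spot SDs. It was the only one of 8 members at or below -1, a range that held 7.54% of genes. When the normexp values were scaled to their 75th percentile in place of quantile normalization, this change was -0.80 and E in ES was 0.61. In that setting the median of all probes was 0.21 for the change and -0.28 for E in ES.

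Prmt1 (chr7:52231359-52241862, mm9) makes most asymmetric dimethylarginine in mammalian cells. At its coding probe the Ago-RNA signal was 14.81 in ES, 15.13 in ELA, then 14.58 in NPC and 13.31 in NPC/Neu, and the total RNA signal was 15.68, 15.25, 15.41 and 14.12. At its 3′ end probe Ago-RNA was at 16.56, 16.77, 16.51 and 15.70, and total RNA at 16.84, 16.51, 16.69 and 15.66. At both probes total RNA was lowest in NPC/Neu, by more than 1 log2 unit against NPC.

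E at the coding probe was -0.87 in ES, -0.12 in ELA, then -0.82 in NPC and -0.81 in NPC/Neu. At the 3′ end probe it was -0.28, 0.26, -0.17 and 0.04. Both probes were highest in ELA, and the coding probe was lower than the other at all 4 stages. The change of E from ES to ELA was 0.75 and 0.54, and their mean, 0.65, was the only positive value among the 8 members with quantile normalization, whereas 49.3% of all genes were above 0 and 50.7% below it. Genes with transcripts of similar length to Prmt1 had a positive median change as well, 0.27. For the lengths of the other members this median was negative, from -0.33 (Prmt7) to -0.04 (Prmt2). With normexp values scaled to the 75th percentile the mean was 1.07, and Prmt6 and Prmt8 were positive too. The median of all probes was 0.21 in that setting, above Prmt6 (0.18) and below Prmt8 (0.42).

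Set side by side, E of Prmt5 exceeded E of Prmt1 by 1.73 in ES, and in ELA the difference was -0.13, within the spot SD of E. With separate normalization of the fractions it was 0.10 in ELA, so that no order can be given there. It was 0.54 in NPC and 0.98 in NPC/Neu. With the brighter Prmt1 probe alone it was 1.43 in ES, -0.32 in ELA, then 0.21 in NPC and 0.56 in NPC/Neu. The spread of E over all genes was narrowest in ELA as well. Its quartiles were -0.49 and 0.55 in ES, -0.30 and 0.28 in ELA, -0.36 and 0.42 in NPC, and -0.47 and 0.63 in NPC/Neu. Fractions contributed differently: from ES to ELA the Ago-RNA of Prmt5 was lower by 1.41 and its total RNA by 0.19, while the Ago-RNA of Prmt1 was higher by 0.27 and its total RNA lower by 0.38.

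**Figure D4:**
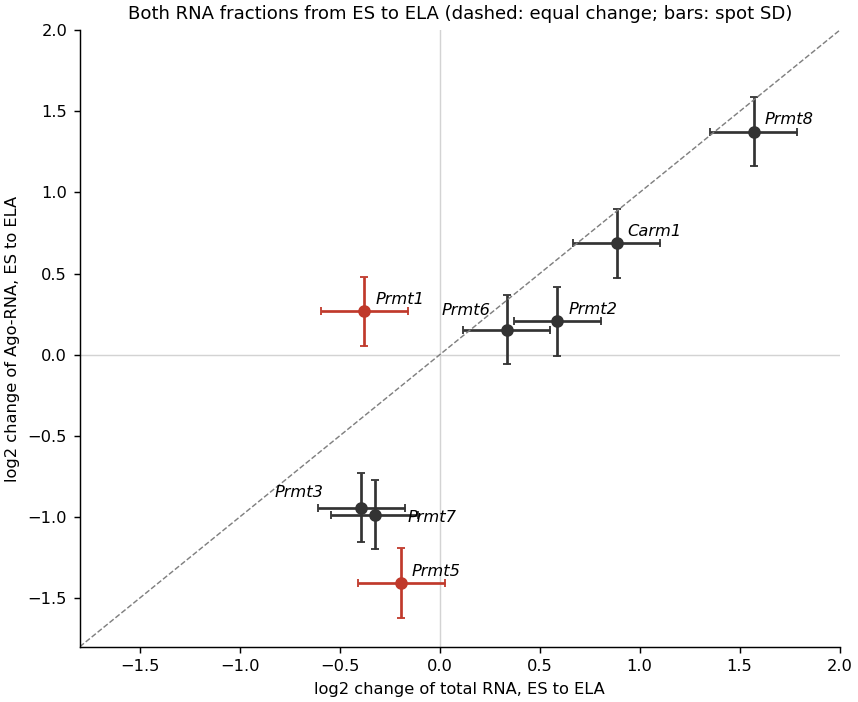
Log2 change from ES to ELA in total RNA (horizontal axis) and in Ago-RNA (vertical axis) for the 8 genes, 1 array per condition. Bars are the median spot SD of repeated probes, and the dashed line marks an equal change of both fractions. Prmt5 lies farthest below the line, Prmt3 and Prmt7 lie below it as well, and Prmt1 is the only gene above it. With scaling to the 75th percentile Prmt6 and Prmt8 join it. Such scaling puts the median change of E of all probes at 0.12 or 0.21. With quantile normalization, genes of similar transcript length to Prmt1 had a median change of E of 0.27.

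Prmt7 and Prmt3 shared the direction of Prmt5 with smaller values. E of Prmt7 was 0.90 in ES and 0.03 in ELA at the stop codon probe and 0.29 and -0.16 at the coding probe. E of Prmt3 was 0.69 in ES, 0.14 in ELA, then 0.35 in NPC and 0.74 in NPC/Neu. For both genes, as for Prmt5, E was higher again in NPC/Neu than in ELA. The same held for Prmt2 (-0.32 in ELA and 0.75 in NPC/Neu) and the probe mean of Prmt6 (0.02 and 0.60). For Prmt1, Prmt8 and Carm1 E was lower in NPC/Neu. The median of E over all genes was -0.03 in ELA and 0.10 in NPC/Neu. Prmt6, Prmt8 and Carm1 differed by -0.18, -0.19 and -0.20 from ES to ELA, within the spot SD. The sign for Prmt6 and Prmt8 turned with normexp values scaled to the 75th percentile (0.18 and 0.42). The median of all probes was 0.21 in that setting, so the value of Prmt6 did not exceed it. By the thresholds of the study for release or loading (E of at least 2 at one stage, at most 0.5 at the other and a change of at least 1.5), 0 of the 12 probes were called in any transition, against 0.423% of all probes.

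Longer transcripts had higher E across the array. In ES the median E was -0.85 for genes with transcripts of up to 1000 bases and 1.12 for those above 6000 bases. Prmt1 has the shortest transcript of the family, 1360 bases, and Prmt7 the longest, 3472 bases. Against 688 genes of similar length (within 10%), whose median E in ES was -0.42, Prmt1 lay above 37.9%. Against 1364 genes of the length of Prmt5 (2691 bases), with a median of 0.19, Prmt5 lay above 92.0%. The median change of E from ES to ELA among these genes of similar length was 0.27 for Prmt1 and -0.16 for Prmt5. The part of length in the values of the members was not tested.

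**Figure D5:**
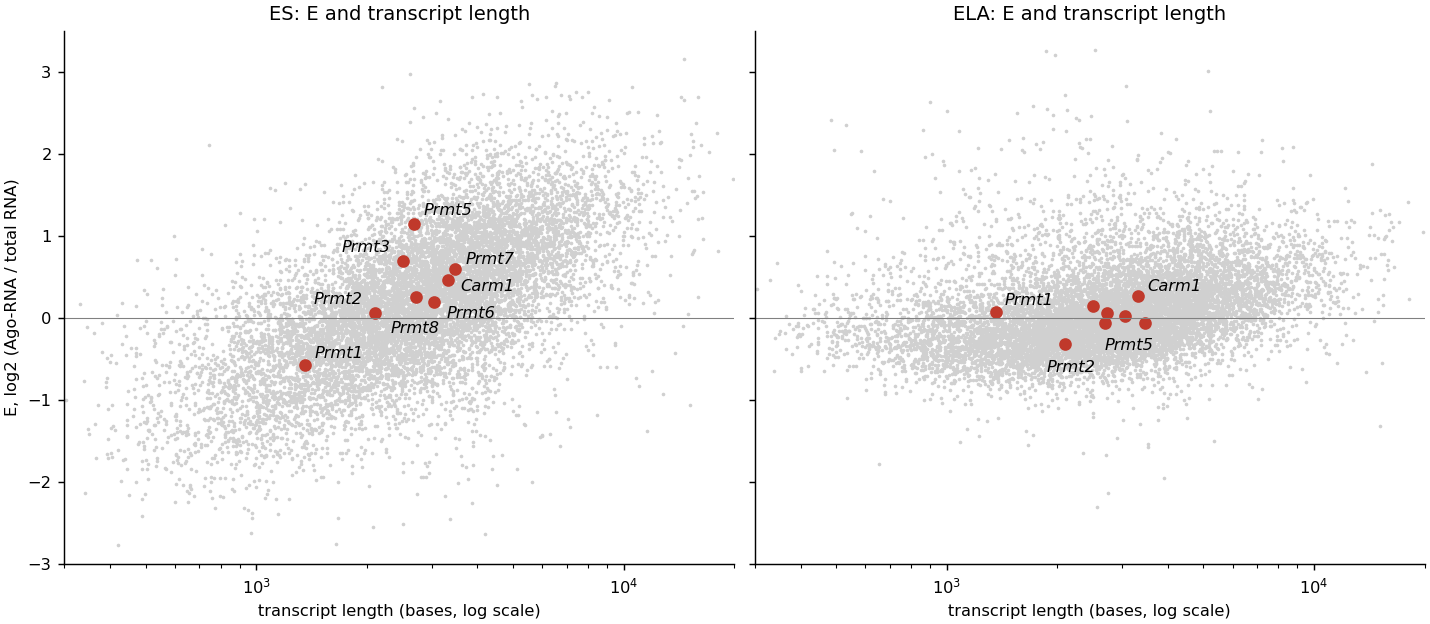
Ago enrichment E (vertical axis) against transcript length in bases (horizontal axis, log scale) in ES (left) and ELA (right), with all genes well above background and with a coding transcript in gray and the 8 PRMT genes in red. The gray cloud slopes upward more steeply in ES than in ELA. In ES Prmt5 lies in its upper part at 2691 bases, and Prmt1 lies within it at 1360 bases.

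Recognition by miRNAs of ES cells and neural cells was described by seed matches in 3′ UTRs, that is, 7 bases complementary to bases 2 to 8 of the miRNA. The miRNAs below (RefSeq) show the seeds in capitals. The first 4, abundant in pluripotent cells, share a single seed, so their matches cannot be told apart.
mmu-miR-291a-3p: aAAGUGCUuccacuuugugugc
mmu-miR-294-3p: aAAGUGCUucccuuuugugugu
mmu-miR-295-3p: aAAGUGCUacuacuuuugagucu
mmu-miR-302b-3p: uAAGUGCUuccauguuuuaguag
mmu-let-7a-5p: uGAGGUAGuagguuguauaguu
mmu-miR-9-5p: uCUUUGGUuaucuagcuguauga
The match to the shared seed, AGCACTT on the transcript strand, was in none of the representative 3′ UTRs of the 8 members nor in the other Prmt6 3′ UTR, and 11.8% of all 3′ UTRs hold it. Among 3′ UTRs of similar length the share was 5.31% for Prmt5 and 1.52% for Prmt1, and it was highest for the spliced Prmt6 transcript, at 19.9%. Prmt5 is among the members without it.

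The let-7 match CTACCTC was found once, in the 3′ UTR of the spliced Prmt6 transcript, and not in that of the single-exon transcript. Of 3′ UTRs of similar length, 12.9% hold it. The miR-9 match ACCAAAG was found once, in Carm1, against 12.8% of 3′ UTRs of similar length. These sites are shown because they are the matches found, with the matched bases in capitals.
Prmt6 spliced transcript: taaagttccacCTACCTCcctcctcatac
Carm1: agccccctcccACCAAAGggttcacctca
Only the transcript strand was searched. Matches to miR-124, also planned, were not searched because its sequence was missing from the reference. A match describes the sequence and is no measured site, and the absence of these letters says nothing of other sites.

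The genes whose 8-array profile, centered on its own mean, lay nearest to a member were ranked over 15412 genes by root mean square distance. For Prmt5 they were Gnl2 (0.08), Ss18, Xpo1, Hdlbp and Cse1l (0.11 each), with E in ES of 0.94 to 1.21. Among the members Prmt7 was the nearest to Prmt5, at rank 130. For Prmt1, after an unannotated intergenic probe, they were Ppie (0.10), Pfdn2 (0.11), Ncbp2 (0.12) and Nudt1 (0.13), with E in ES of -0.92 to -0.41. Prmt1 itself was at rank 6313 for Prmt5. Both ES signals that form E were used for the distance. The closeness of E in ES to that of the member thus follows from the choice of genes.

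Partners and substrates of these enzymes were described from lists of known genes. All 6 Prmt5 partners were lower in total RNA in NPC/Neu than in ES (median -1.03), as were 52.9% of all genes, from -2.39 for Lyar, which brings Prmt5 to chromatin, to -0.43 for 2410022L05Rik (Coprs), which binds the enzyme to histones. Their change of E from ES to ELA ran from -0.81 for the adaptor Riok1 to 0.66 for the adaptor Clns1a. Prdm1 had no value there because its ELA spot was irregular, and 0 of the other 5 were at or below -1, where 7.54% of all genes lay.

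Of 12 RNA-binding proteins with RGG motifs methylated by Prmt1, 11 had a lower E in ELA than in ES, as did 50.7% of all genes (median -0.66, against -0.01 for all genes). The highest change was 0.04, for the signaling adaptor Khdrbs1. Total RNA of the list differed little from ES to ELA (median 0.11), and from ES to NPC/Neu it ranged from -0.93 for nucleolin (Ncl) to 1.22 for Khdrbs1. Of the 6 Sm and splicing substrates of Prmt5, 4 had a higher E in ELA, as did 49.3% of all genes (median 0.59), from -0.67 for Coil, the scaffold of Cajal bodies, to 1.38 for Snrpd2. All 6 were lower in total RNA in NPC/Neu than in ES, against 52.9% of all genes, from -1.38 for Coil to -0.22 for Lsm4.

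Of 4 regulators of Prmt1, the antiproliferative cofactor Btg2 had the highest change of E from ES to ELA (1.63) and the coactivator Ncoa2 the lowest (-0.74), while total RNA from ES to NPC/Neu ran from -2.06 for Ncoa3 to 2.40 for Btg1. A further list held Prmt10, Fbxo11 and 2410091C18Rik (Ndufaf7), of which only Prmt10 carries a PRMT name. All 3 had a lower E in ELA than in ES, against 50.7% of all genes, from -1.06 for Prmt10 to -0.77 for 2410091C18Rik. In total RNA 2410091C18Rik was 1.21 lower and Fbxo11 1.76 higher from ES to NPC/Neu. Prmt10 (now Prmt9) had E of 1.02, -0.05, 0.50 and 1.14 at the 4 stages, close to Prmt5 in ES and ELA and above it in NPC and NPC/Neu.

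Among 10 measured genes of S-adenosylmethionine supply and salvage, 7 had a lower E in ELA, against 50.7% of all genes (median -0.23, against -0.01), from -1.44 for methionine synthase (Mtr) to 1.69 for Pemt, and 8 were lower in total RNA in NPC/Neu than in ES, against 52.9% of all genes, from -2.52 for spermidine synthase (Srm) to 0.74 for Ahcyl1. Among 9 readers of methylarginine and counteracting enzymes, 8 had a lower E in ELA, against 50.7% of all genes (median -0.54, against -0.01), from -1.92 for Snd1, a Tudor domain protein, to 0.40 for Smn1. In total RNA they ranged from -3.89 for Padi2, which converts arginine to citrulline, to 1.67 for Tdrd3. Padi3 and Padi4 of this list were not well above background on all 8 arrays.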

How the data were processed

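Total RNA and Ago-RNA were hybridized to Agilent SurePrint G3 Mouse arrays with 1 color. The authors deposited spot intensity written by Feature Extraction 10.7.3.1 per the file headers, and the submitters' processing notes name Feature Extraction 9.1 and limma. Mean and local background intensity were deposited before normalization between arrays. Here they were corrected with normexp (offset 50, limma 3.58.1, R 4.3.3), irregular spots were left out, the 8 arrays were brought to a common distribution of log2 values by quantile normalization, and spots of a probe, then probes of a gene, were averaged. Such scaling fixes each array's distribution, so values are relative to the other genes. The procedure was tested on simulated data. The release thresholds follow the study's methods, with the binding threshold fitted in mclust 6.1.1. Shares of genes refer to gene names whose probes were all well above background on the arrays compared. The lists of partners, substrates and related genes had a looser filter, a signal well above background on at least 1 array. According to the labels 50 ng of RNA was labeled. The number of arrays limits the precision.

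Probe positions are those of the array annotation (mm9), and transcripts are those of GENCODE on the same build. The representative transcript had the longest coding sequence. All members are named, and from each companion list the genes with the extreme changes of E from ES to ELA and of total RNA from ES to NPC/Neu, of which 1 is not reported here. The members and lists were chosen with earlier results of these data known. A total of 10 alternative settings was tried. Python 3.11.15, numpy 2.4.6 and pandas 2.3.3 were used. Protein sequences were not used here.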

Additional observations from a re-analysis of the deposited data

How the results depend on the processing

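No paired analysis was possible because each condition has 1 array, and for the same reason no replicate could be left out. No result with a size of at least 1 turned its sign in the 10 alternatives. Of the medians and differences, 160 moved by less than the spot SD and 20 by more. Members past 1 in total RNA from ES to NPC/Neu, 5 as reported, were 6 with offset 0, processed intensity with quantile normalization and normexp values scaled to the 75th percentile, and 7 with processed intensity so scaled. Processed intensity with quantile normalization put Prmt5 minus Prmt1 in E at 1.54 in ES. Processed intensity scaled to the 75th percentile put the family medians at 0.41 for Ago-RNA from ES to ELA, -0.31 for total RNA from ELA to NPC, 0.40 for E and -1.12 for total RNA from ES to NPC/Neu, and Prmt5 minus Prmt1 in NPC at 0.74. Normexp values scaled to the 75th percentile gave -0.27 for total RNA from ELA to NPC, 0.50 for E and -1.10 for total RNA from ES to NPC/Neu, and 0.76 for Prmt5 minus Prmt1 in NPC. Separate normalization of Ago-RNA and total RNA gave median E of 0.72 in ES, 0.58 in NPC and 0.92 in NPC/Neu, Prmt5 minus Prmt1 of 0.78 in NPC, and 2 members past 1 in ES (Prmt3 at 1.17 and Prmt5 at 1.35). There the median E of all probes in ES was 0.24. The brightest probe of each gene gave a median of -0.093 for Ago-RNA from ES to ELA, and Prmt5 minus Prmt1 of 1.43, 0.21 and 0.56 in ES, NPC and NPC/Neu. Prmt6 from its single-exon transcript probe alone, a choice made after seeing the data, gave -0.093 for Ago-RNA from ES to ELA and -0.26 for total RNA from ELA to NPC. The change of E of Prmt5 from ES to NPC/Neu, -0.55, was 0.21 and 0.22 with the settings scaled to the 75th percentile. The causes were not tested. Of the values of single genes, 1005 moved by less than the spot SD and 147 by more. This tally and that of the medians and differences include values that could not change. All 12 probes were well above background, so keeping only such probes left every value as it was. The brightest probe setting left genes read by a single probe as they were, and the Prmt6 setting left the other genes.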
